A study of Asparagus officinalis with 12 samples.

Results

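The sucrose synthase family of asparagus was described in elongating stems of the cultivar 'Fengdao 2'. A gene was taken as a member when its description in the table began with sucrose synthase, and 10 of the 35166 genes met this rule. Of these, 8 passed the filter on low values (1 FPKM or more in 3 or more libraries) and were tested, LOC109820666 was measured but too low, and LOC109821147 had no fragment in any library. FPKM stands for fragments scaled by the length of the gene model and by the size of the library, so that levels can be compared between genes of different length.

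Sucrose synthase is a cytosolic enzyme that splits sucrose, with UDP, into UDP-glucose and fructose, and the reaction can run in both directions. UDP-glucose is the substrate from which cellulose synthase and callose synthase build their polymers, and it also enters starch synthesis and respiration. The enzyme is well known in plants from sink tissues, phloem and cells that lay down a secondary wall, and it shares the cleavage of sucrose with the invertases, which release glucose and fructose.

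RNA was sequenced from stems harvested at plant heights of 10 cm (H-10), 25 cm (H-25), 40 cm (H-40) and 60 cm (H-60), from untreated plants of 1 cultivar, and each stage had 3 of the 12 libraries. The segment was taken at 3 to 6 cm above the soil surface for H-10 and at 17 to 20 cm for the other stages, so stage and position along the stem cannot be told apart where H-10 is compared. The study compared the stages to follow the elongation of the tender stem. The stage of each library was read from column names numbered in the order of the heights, and the labels do not say whether the 3 libraries of a stage came from separate plants, so p-values measure only the spread between these libraries. The libraries held 13468440 to 16980659 fragments, and 1 fragment in a 1-kilobase gene was worth 0.0522 to 0.0795 FPKM.

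H-25 replicate 2 stood apart from the other libraries of its stage before any sucrose synthase gene is considered. Genes of cytosolic ribosomal proteins took 3.64% of its fragments, against 7.48% and 7.0% in H-25 replicates 1 and 3. Each call of a member or of a named enzyme or carrier gene that changes without this library is therefore given with and without it, while sums, shares and correlations use all libraries. Chlorophyll a-b binding protein genes, which mark green tissue, were detected in every stage, with 16 of 17 at a mean FPKM of at least 1.

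The 10 genes lie on 5 chromosomes of the RefSeq assembly Aspof.V1 and differ in the length of their gene models and in the domains listed for them. The sucrose synthase domain was listed for 9 of them, and for 5 both this domain and the glycosyltransferase domain were listed. Whether a listed domain is whole was not checked. LOC109845351 (sucrose synthase 2; chromosome 6, 5825070 to 5832081, minus strand) and LOC109849688 (sucrose synthase 4; chromosome 7, 46432500 to 46440441, plus strand) had models of 3026 and 2747 bases with both domains. LOC109820065 (sucrose synthase 2-like; chromosome 8, 104602426 to 104609934, minus strand) had the longest model, 3160 bases, and neither of these domains was found in its annotation. Whether the gene or only its annotation lacks them was not tested, and other domains were not looked for. Both domains were also listed for LOC109833647 (2-like; chromosome 3, 31210527 to 31214228, plus strand; 2179 bases) and LOC109819760 (7-like; chromosome 8, 113658633 to 113663053, plus strand; 2836 bases).

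The remaining 5 models were shorter than 1300 bases. LOC109840157 (2-like; chromosome 5, 91296922 to 91300958, plus strand; 982 bases) and LOC109849404 (3-like; chromosome 7, 45714628 to 45718151, minus strand; 1242 bases) held only the sucrose synthase domain, as did the untested LOC109820666 (3-like; chromosome 8, 126405533 to 126406636, plus strand; 810 bases) and LOC109821147 (2-like; chromosome 8, 37567458 to 37570092, plus strand; 699 bases). LOC109847517 (1-like; chromosome 7, 94114212 to 94132118, plus strand) had both domains on a model of 762 bases that spans 17907 bases of the genome. How fragments that match several members were counted is not stated in the sources at hand, so levels of closely related members could have been shared between them.

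The family sum was low at H-10 and H-25 and several times higher at H-40 and H-60. It was 1596, 954 and 678 FPKM in the libraries of H-10, 594, 1877 and 671 FPKM at H-25, 3367, 5570.1 and 5101 FPKM at H-40, and 6069, 5427 and 4255 FPKM at H-60. All 6 libraries of H-40 and H-60 lay above all 6 of H-10 and H-25, whereas H-10 overlapped H-25, and H-60 overlapped H-40. As a share of all FPKM, the family took 0.167 ± 0.0743% at H-10 and 0.137 ± 0.0914% at H-25 (SD, n = 3 each). It took 0.661 ± 0.142% at H-40 and 0.767 ± 0.122% at H-60. In bulk segments, more cells that express a gene and more RNA per cell cannot be told apart. These values are of RNA and not of enzyme activity. The paper measured sucrose synthase activity in the cleavage direction and found it highest at H-25, significantly above H-40 and H-60. How RNA and activity relate was not tested.

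**Figure D1:**
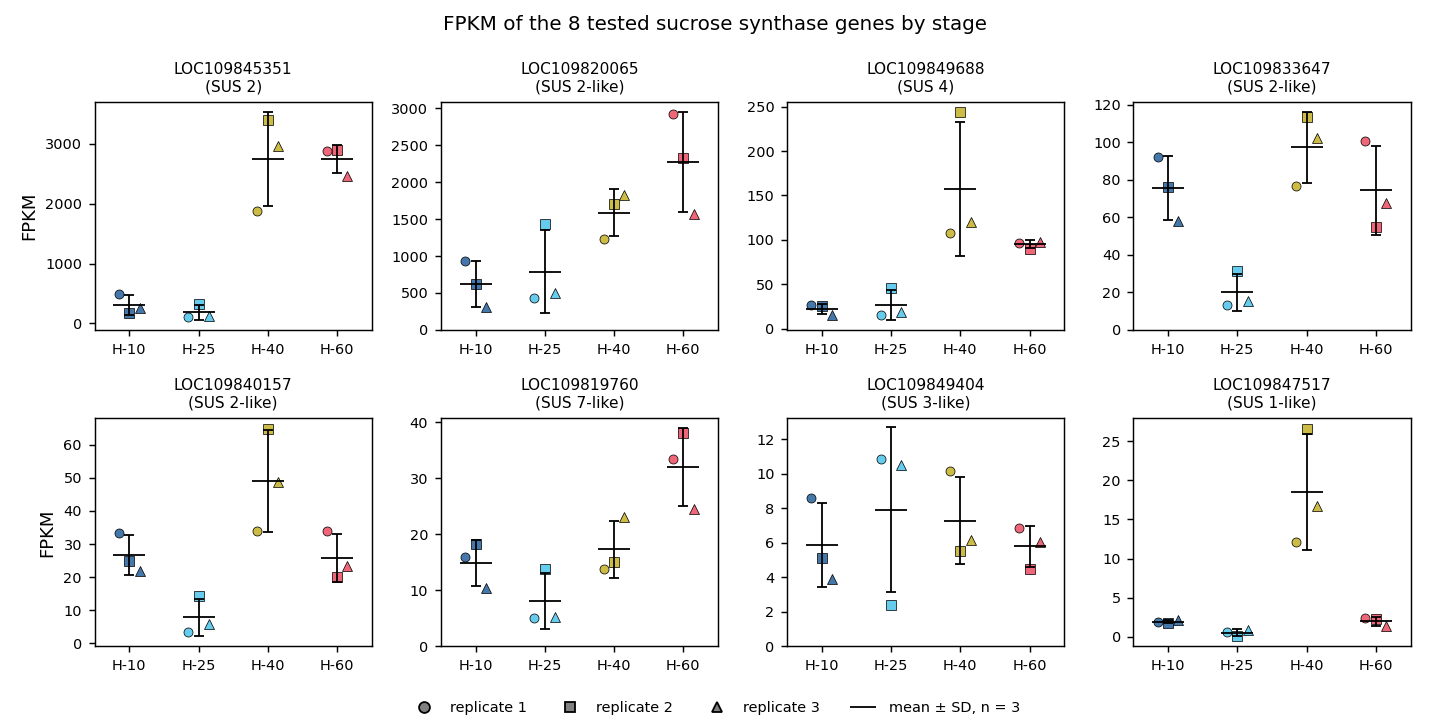
FPKM (linear axis, own scale per panel) of each of the 8 tested sucrose synthase genes in the 12 libraries, by stage. Points are libraries with the marker giving the replicate number, and the horizontal line with bars is the mean ± SD (n = 3). LOC109845351 lies at 114 to 489.9 FPKM in H-10 and H-25 and at 1884 to 3397 FPKM in H-40 and H-60, and LOC109847517 is above 12 FPKM only at H-40.

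LOC109845351 and LOC109820065 made up most of the family in every library. LOC109845351 had 489.9, 181 and 254 FPKM at H-10, 114, 330.1 and 121 FPKM at H-25, 1884, 3397 and 2954 FPKM at H-40, and 2873, 2891 and 2467 FPKM at H-60. Its lowest library of H-40 and H-60 was above its highest library of H-10 and H-25. The mean was 2745 ± 778 FPKM at H-40, against 189 ± 123 FPKM at H-25 (SD, n = 3 each), a 14.6-fold ratio. On the log2(FPKM + 1) scale this was a rise of 4.0 ± 0.44 (SE, adjusted p = 3.99e-05). Between H-60 and H-40 the difference was 0.04 with a 95% interval of -0.91 to 0.99.

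At H-25, LOC109845351 was not called against H-10 (-0.76 ± 0.44, SE, adjusted p = 0.336), and the libraries overlapped. H-25 replicate 2 was the highest library of its stage, and without it the gene was called lower at H-25 (-1.26 ± 0.38, SE, adjusted p = 0.0420). The 2 remaining H-25 libraries, with 114 and 121 FPKM, lay below all libraries of H-10.

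LOC109820065 was called higher only at H-60, against H-25, among the 4 comparisons. It had 927, 621 and 311 FPKM at H-10, 431, 1438 and 493 FPKM at H-25, 1228, 1703 and 1829.6 FPKM at H-40, and 2921, 2325 and 1567 FPKM at H-60. H-25 replicate 2 reached into the range of H-40, and all other libraries of H-25 lay below it. The mean was 1587 ± 317 FPKM at H-40, against 787 ± 565 FPKM at H-25, and the change of 1.21 ± 0.48 (SE) was not called (adjusted p = 0.0640). Without H-25 replicate 2 it was 1.76 ± 0.42 and was called (adjusted p = 0.00487). At H-60 the gene averaged 2271 ± 679 FPKM, and it was called higher than at H-25 (1.71 ± 0.48, SE, adjusted p = 0.0115), with no overlap of libraries. This call was lost without H-25 replicate 1 (1.38, adjusted p = 0.0568). Between H-60 and H-40 the change of 0.49 ± 0.48 (SE) was not called (adjusted p = 0.612).

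Of the 2 leading genes, LOC109820065 was the higher at H-10 and H-25 and LOC109845351 at H-40. The ratio of LOC109845351 to LOC109820065 within a library was 0.528, 0.292 and 0.815 at H-10 and 0.266, 0.230 and 0.246 at H-25. It was 1.53, 2.0 and 1.61 at H-40 and 0.984, 1.24 and 1.57 at H-60. LOC109845351 was thus above LOC109820065 in 0 of 3 libraries at H-10 and at H-25, in 3 of 3 at H-40 and in 2 of 3 at H-60. The 2 levels do not depend on the scaling between libraries when they are compared within 1 library, and H-25 replicate 2 had nearly the same ratio as the other 2 H-25 libraries although LOC109845351 and LOC109820065 were 2.80 and 3.12 times as high in it as in the mean of those.

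**Figure D2:**
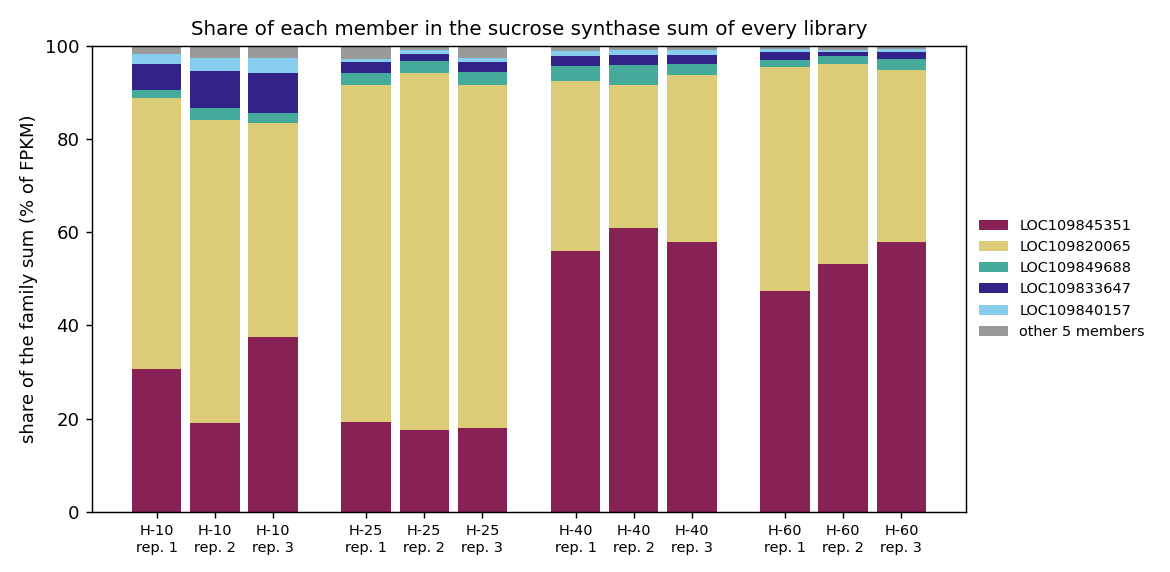
Share of each sucrose synthase gene in the family sum (% of FPKM) for each of the 12 libraries, grouped by stage, with the 5 lowest members drawn together. LOC109820065 holds 72.5 to 76.6% in the H-25 libraries, and LOC109845351 holds 56.0 to 61.0% in the H-40 libraries.

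In shares of the family sum, LOC109845351 took 29.0 ± 9.33% at H-10 and 18.3 ± 0.850% at H-25, and then 58.3 ± 2.54% at H-40 and 52.9 ± 5.33% at H-60 (SD, n = 3 each). LOC109820065 took 56.4 ± 9.69%, 74.2 ± 2.19%, 34.3 ± 3.25% and 42.6 ± 5.66% at the same stages. Between H-40 and H-25 the shares of both genes had no library in common, while between H-60 and H-40 the shares of LOC109845351 overlapped and those of LOC109820065 did not (36.8% in the lowest library of H-60, against 36.5% in the highest of H-40). Together they held 85.4% at H-10, between 92.5 and 92.6% at H-25 and H-40, and 95.5% at H-60. The shares were not tested.

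Below the leading genes, LOC109833647 had the largest share at H-10, 7.47 ± 1.48%, and took 2.07 ± 0.340% at H-25, then 2.10 ± 0.147% at H-40 and 1.42 ± 0.358% at H-60. LOC109840157 took 2.64 ± 0.572% at H-10 and 0.740 ± 0.130% at H-25, with 1.04 ± 0.109% at H-40 and 0.493 ± 0.105% at H-60. For both genes every H-10 library had a larger share than every library of the other stages. LOC109849688 stayed between 1.60 and 4.38% of the sum in all 12 libraries. LOC109819760, LOC109849404 and LOC109847517 each held less than 2% in every library.

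The order of the mean levels was LOC109820065, LOC109845351 and LOC109833647 at H-10 and LOC109820065, LOC109845351 and LOC109849688 at H-25. At H-40 and H-60 it was LOC109845351, LOC109820065 and LOC109849688, followed by LOC109833647. The libraries of the 2 leading genes overlapped at H-10 and H-60 and not at H-25 and H-40, and the second gene never overlapped the third. LOC109849688 and LOC109833647 overlapped at H-25, H-40 and H-60. At H-25, LOC109819760, LOC109849404 and LOC109840157 had means of 8.07, 7.92 and 7.88 FPKM and could not be ordered.

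LOC109849688, annotated as sucrose synthase 4, moved with LOC109845351 at a lower level. It had 26.4, 25.0 and 15.7 FPKM at H-10, 15.4, 46.1 and 19.1 FPKM at H-25, 108, 244 and 119.6 FPKM at H-40, and 96.8, 89.7 and 97.9 FPKM at H-60. All libraries of H-40 lay above all libraries of H-25, and the rise at H-40 was 2.56 ± 0.38 on the log2(FPKM + 1) scale (SE, adjusted p = 3.20e-04). Each library of H-60 was lower than each library of H-40, but the change of -0.62 ± 0.38 was not called (adjusted p = 0.378). H-40 replicate 2 was more than 2 times as high as the other libraries of that stage.

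LOC109833647 and LOC109840157, both annotated as 2-like, had a trough at H-25. LOC109833647 had 92.4, 76.4 and 58.3 FPKM at H-10, 13.4, 31.5 and 15.3 FPKM at H-25, 76.5, 113 and 102 FPKM at H-40, and 100.7, 54.7 and 67.6 FPKM at H-60. The H-25 libraries were the lowest 3 of the 12, and the other stages overlapped. The gene averaged 20.1 ± 9.95 FPKM at H-25, against 75.7 ± 17.1 FPKM at H-10, a fall of 1.94 on the log2 scale (SE 0.32, adjusted p = 0.00540), and it rose again by 2.30 ± 0.32 at H-40, against H-25 (adjusted p = 1.82e-04).

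LOC109840157 had 33.3, 24.8 and 21.9 FPKM at H-10, 3.57, 14.3 and 5.76 FPKM at H-25, 34.0, 64.8 and 48.7 FPKM at H-40, and 33.9, 20.2 and 23.3 FPKM at H-60. Here, too, the H-25 libraries were the lowest 3, and H-40 lay above all other libraries, narrowly so for its lowest library. The change was -1.81 ± 0.39 at H-25, against H-10 (SE, adjusted p = 0.0198), and 2.64 ± 0.39 at H-40, against H-25 (adjusted p = 2.84e-04). The call at H-25 was lost without H-10 replicate 1, H-10 replicate 2, H-25 replicate 1 or H-25 replicate 3 (adjusted p = 0.0582 to 0.0872). The decline at H-60, against H-40, was not called (-0.89 ± 0.39, adjusted p = 0.201).

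LOC109819760, the 7-like gene, had its highest mean at H-60, as LOC109820065 did. It had 15.9, 18.3 and 10.4 FPKM at H-10, 5.08, 13.9 and 5.28 FPKM at H-25, 13.8, 15.1 and 23.1 FPKM at H-40, and 33.3, 38.1 and 24.6 FPKM at H-60. The H-60 libraries lay above all others, while H-25 replicate 2 overlapped H-40. Its rise of 1.97 ± 0.34 at H-60, against H-25 (SE, adjusted p = 5.43e-04), was called. The change of 1.11 ± 0.34 at H-40, against H-25, was called at an adjusted p of 0.0226, and was no longer called without H-25 replicate 1, H-25 replicate 3 or H-40 replicate 3 (0.89, 0.91 and 0.90; adjusted p = 0.0888 to 0.0976). With only these stages in the model, the same change had an adjusted p of 0.0597 and was not called.

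LOC109847517, the 1-like gene, peaked at H-40. It had 1.92, 1.74 and 2.15 FPKM at H-10, 0.657, 0.0936 and 0.868 FPKM at H-25, 12.1, 26.6 and 16.7 FPKM at H-40, and 2.35, 2.33 and 1.34 FPKM at H-60. The H-40 libraries stood clear of all others, and the H-25 libraries were the lowest, on only 8, 1 and 11 fragments. It rose by 3.63 ± 0.30 on the log2(FPKM + 1) scale at H-40, against H-25 (SE, adjusted p = 6.50e-06), and fell by 2.65 at H-60, against H-40 (SE 0.30, adjusted p = 3.61e-04). At H-60, against H-25, the change of 0.98 had an adjusted p of 0.0160 and missed the fold criterion of 1, and with a pseudocount of 0.1 it was 1.97.

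LOC109849404, a 3-like gene, was called in none of the 4 comparisons. It had 8.61, 5.14 and 3.90 FPKM at H-10, 10.8, 2.41 and 10.5 FPKM at H-25, 10.2, 5.55 and 6.15 FPKM at H-40, and 6.85, 4.47 and 6.04 FPKM at H-60. All stages overlapped, and H-25 replicate 2 was the lowest library of the 12, unlike in 6 of the 8 tested members, which had their highest H-25 value there. The 95% interval of the change at H-40, against H-25, ran from -0.90 to 1.01, which reaches about the fold criterion on both sides.

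LOC109820666, the other 3-like gene, was at 0 to 1.15 FPKM, with 75 fragments over the 12 libraries, and no difference between stages could be seen at this depth. LOC109821147 had 0 fragments in each library, which allows a level of up to 0.224 to 0.341 FPKM per library (3 fragments), counting error only.

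**Figure D3:**
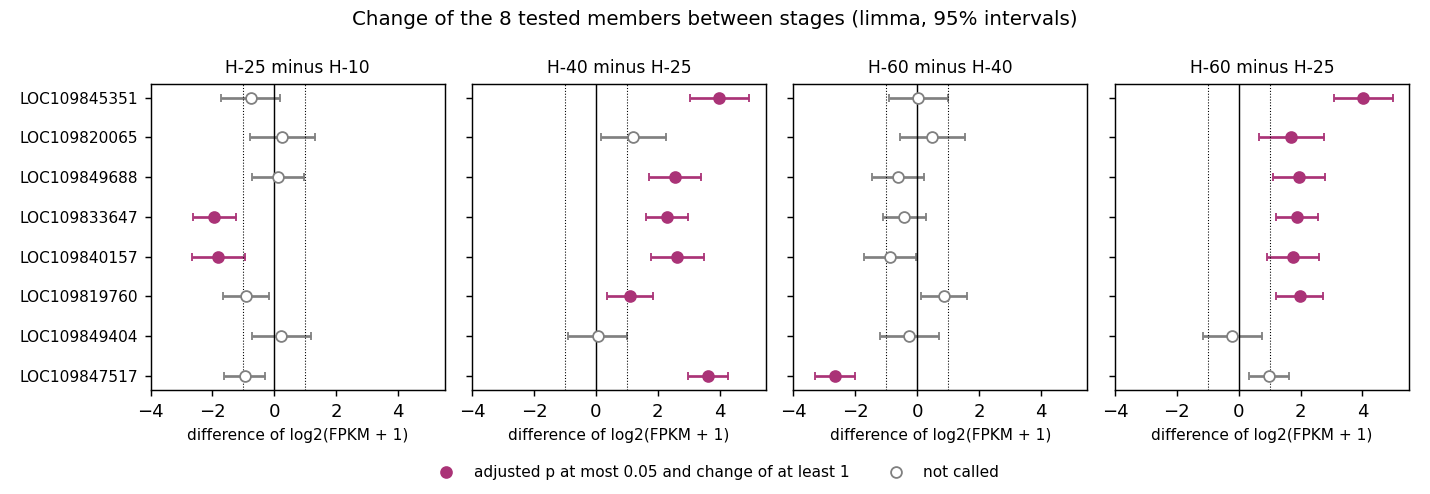
Difference of log2(FPKM + 1), later minus earlier stage, for the 8 tested sucrose synthase genes in 4 comparisons (limma, all 12 libraries), with unadjusted 95% intervals. Filled points are called (adjusted p of at most 0.05 and a change of at least 1, the dotted lines). At H-40, against H-25, 6 genes are filled on the right, and at H-25, against H-10, 2 are filled on the left.

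Against H-25, the members called at H-40 and at H-60 were higher, while the calls at H-25, against H-10, and at H-60, against H-40, were of lower levels. A gene was called at an adjusted p of at most 0.05, over all 20352 tested genes, when its log2 fold change was also at least 1 in size. At H-25, against H-10, 0 of 8 tested members were called higher and 2 lower, where 1.54% of all tested genes were called higher and 2.91% lower. No member passed the fold criterion upward there at an unadjusted p or with limma voom either. Without H-25 replicate 2, 4 members were called lower, as LOC109819760 (-1.33 ± 0.28, SE, adjusted p = 0.00894) joined LOC109845351, LOC109833647 and LOC109840157. Calls also rose over all genes in that refit, with 1158 of 20242 tested genes lower, against 592 of 20352 with all libraries. The count of members called lower was 0 with only the 2 stages compared, and 1 when H-10 replicate 1, H-10 replicate 2, H-25 replicate 1 or H-25 replicate 3 was left out. Over all tested genes, the lower calls fell as well, to 124 with only the 2 stages compared. They were 491, 228, 307 and 235 without these 4 libraries, in the same order.

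At H-40, against H-25, 6 of 8 were called higher and 0 lower, where 11.9% of all tested genes were called higher and 12.2% lower. The median change of the 8 was 2.43, against 0.01 over all tested genes. With an unadjusted p, 7 were higher and 0 lower, and limma voom on recovered fragments gave 6 and 0. At H-60, against H-40, 0 were called higher and 1 lower (LOC109847517), where 3.02% and 2.28% of all tested genes were called in these directions. None passed the fold criterion upward at an unadjusted p or with limma voom. At H-60, against H-25, which shares its H-25 libraries with the comparison of H-40, 6 were called higher and 0 lower, where 16.3% and 16.2% of all tested genes were called, with medians of 1.82 for the members and 0.02 for all tested genes. The changes of LOC109845351, LOC109849688, LOC109833647 and LOC109840157 there were 4.03, 1.94, 1.89 and 1.75. Neither an unadjusted p nor limma voom called a member lower at H-40 or at H-60, against H-25.

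The members resembled each other to different degrees over the 12 libraries, which share their stages. Pearson's r of log2(FPKM + 1) was 0.975 between LOC109833647 and LOC109840157, 0.937 between LOC109845351 and LOC109849688, and 0.871 between LOC109845351 and LOC109820065. LOC109849404 had r between -0.41 and 0.15 with every other tested member. These values describe the 12 libraries and were not tested.

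Marker genes of several cell types varied between the stages beside the family. The 13 secondary wall markers were taken by name and include cellulose synthase A subunits, chosen by their number, and laccases. They summed to 309.6 to 544 FPKM at H-10, 152, 608 and 168 FPKM at H-25, 4127 to 5509.9 FPKM at H-40 and 4329.7 to 7276 FPKM at H-60, with none at 0 in any stage. H-25 replicate 2 was again the highest library of its stage. The 27 phloem markers summed to 179 to 254 FPKM at H-10, 106, 205 and 79.8 FPKM at H-25, 216 to 275 FPKM at H-40 and 266 to 299 FPKM at H-60, with 5 to 8 of them at 0 in each stage. They, too, were taken by name, and 8 of them, sucrose transport proteins, are also in the list of sugar carriers below. The 33 markers of dividing cells, mostly histones with some genes that match by name alone (calcyclin-binding proteins), ran the other way, with 2773 to 5851 FPKM at H-10, 8011, 3682 and 6727 FPKM at H-25, 1008 to 1529 FPKM at H-40 and 997 to 1081 FPKM at H-60, and 7 or 8 of them at 0 in each stage. The part of these cell types in the sucrose synthase levels was not tested.

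**Figure D4:**
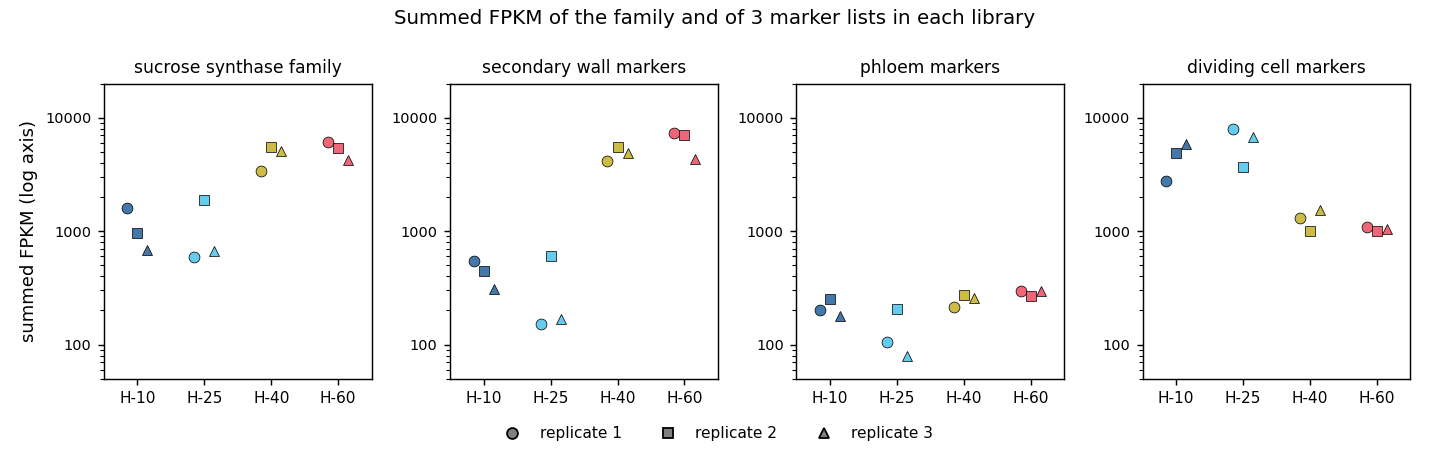
Summed FPKM (log axis, same range in all panels) of the sucrose synthase family, of 13 secondary wall markers, 27 phloem markers and 33 markers of dividing cells in each library, by stage, with the marker shape giving the replicate number. H-25 replicate 2 (square) lies above its stage for the family (1877 FPKM) and the secondary wall list (608 FPKM) and below it for the dividing cell list (3682 FPKM).

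Among the enzymes that make sucrose, sucrose-phosphate synthase had 3 of 6 genes tested, and 2 of these were called higher and 0 lower at H-40, against H-25, where 11.9% of all tested genes were called higher and 12.2% lower. LOC109841155 (probable sucrose-phosphate synthase 1), the most abundant, averaged 125 ± 22.8 FPKM at H-40, against 34.7 ± 21.5 FPKM at H-25, a rise of 1.96 ± 0.31 (SE, adjusted p = 4.83e-04). It was also called lower at H-25, against H-10, once H-25 replicate 2 was left out (-1.05 ± 0.18, adjusted p = 0.00380), a refit of the partner genes that was added after seeing the data. Sucrose-phosphatase, which completes the synthesis, had 2 genes, and neither was called in any of the 4 comparisons. Over these comparisons, 1.54 to 16.3% of all tested genes were called higher and 2.28 to 16.2% lower, so few calls among 2 genes say little. LOC109820022 averaged 40.8 to 50.03 FPKM over the stages.

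The invertases, which cleave sucrose by the other route, had 10 of 15 genes tested. At H-25, against H-10, 1 was called lower, beside 2.91% of all tested genes. At H-40, against H-25, 3 were called higher and 0 lower, beside 11.9% and 12.2% of all tested genes. The most abundant, LOC109823677 (insoluble beta-fructofuranosidase, a cell wall invertase), was called in both comparisons. It averaged 73.2 ± 42.2 FPKM at H-25, against 201 ± 54.1 FPKM at H-10 (-1.55 ± 0.36, SE, adjusted p = 0.0284), and 238 ± 35.8 FPKM at H-40, against that H-25 level (1.82 ± 0.36, adjusted p = 0.00211). The call at H-25 was lost when H-10 replicate 2, H-10 replicate 3, H-25 replicate 1 or H-25 replicate 3 was left out (adjusted p = 0.0746 to 0.124). None of the 5 genes of invertase inhibitors passed the filter.

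The counts for genes that use the products of sucrose synthase stand beside 11.9% of all tested genes called higher and 12.2% lower at H-40, against H-25, and 16.2% lower at H-60, against H-25. Of 6 tested fructokinases, which phosphorylate fructose, 0 were called at H-40, against H-25, and 2 were called lower at H-60, against H-25, or 1 without H-25 replicate 2. Without that library, 3845 of all 20242 tested genes were called lower at H-60, against H-25. LOC109825353 (fructokinase-1-like) averaged 471 ± 16.5 FPKM at H-40, against 308 ± 92.8 FPKM at H-25, and was not called (0.65 ± 0.32, SE, adjusted p = 0.125). Of 7 tested hexokinases, 1 was called higher and 1 lower at H-40, against H-25, and LOC109840627 was not among them (0.55 ± 0.19, adjusted p = 0.0368). UDP-glucose pyrophosphorylase, which interconverts UDP-glucose and glucose 1-phosphate, had 3 tested genes, of which 0 were called higher and 1 lower at H-40, against H-25. At H-60, against H-25, 0 were called higher and 2 lower, with or without H-25 replicate 2, and the median change was -1.27. Its most abundant gene LOC109848462 averaged 537 ± 38.01 FPKM at H-40, against 568 ± 128 FPKM at H-25 (-0.06 ± 0.20, SE, adjusted p = 0.830). At H-60 this gene averaged 382 ± 46.3 FPKM, a change of -0.55 ± 0.20 against H-25 (SE, adjusted p = 0.0328), short of the fold criterion.

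For the glucan synthases that use UDP-glucose, 10 of 15 cellulose synthase A genes were called higher and 0 lower at H-40, against H-25, with a median change of 1.46, where 11.9% of all tested genes were called higher. At H-25, against H-10, 0 were called, where 1.54% of all tested genes were called higher and 2.91% lower. Without H-25 replicate 2, 6 were called lower there, where 1158 of all 20242 tested genes were called lower. Of the 15, 8 are also among the secondary wall markers. The most abundant by FPKM, LOC109845878 (subunit 1), is a short locus (chromosome 6, 21037700 to 21038630), and how complete its model is was not examined. At H-40, against H-25, it missed the fold criterion (0.98 ± 0.23, SE, adjusted p = 0.00558) and passed it without H-25 replicate 2 (1.18 ± 0.22, adjusted p = 0.00107). Of 7 tested callose synthases 0 were called in any of the 4 comparisons, where 1.54 to 16.3% of all tested genes were called higher and 2.28 to 16.2% lower. LOC109826899 (callose synthase 3-like) changed by 0.70 ± 0.17 (SE, adjusted p = 0.00705) at H-40, against H-25, short of the fold criterion. The list of sugar carriers takes sucrose transport proteins and all bidirectional sugar transporters (SWEETs) by name, including some that may not carry sucrose. Of its 14 tested genes, 3 were called higher and 2 lower at H-40, against H-25, beside 11.9% and 12.2% of all tested genes. LOC109824959 (SWEET1a), the most abundant of them, was not called (0.10 ± 0.25, adjusted p = 0.781).

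Genes outside the family, those of the lists above included, were ranked by their likeness to LOC109845351 over the 12 libraries. The 5 most alike, among 18087 tested genes with a description, had r of 0.987 to 0.989. They were LOC109850970 and LOC109840910, both uncharacterized, LOC109832830 (transport inhibitor response 1-like), LOC109841428 (YTH domain-containing family protein 1-like) and LOC109850667 (probable beta-1,4-xylosyltransferase IRX9, an enzyme of xylan synthesis). LOC109850667 averaged 265 ± 7.95 FPKM at H-40, against 4.65 ± 5.56 FPKM at H-25. For LOC109820065 the 5 genes had r of 0.953 to 0.982. They were LOC109849831 (uncharacterized), LOC109833245 (vacuolar protein 8), LOC109839663 (autophagy-related protein 13a-like), LOC109842193 (uncharacterized) and LOC109830393 (lysosomal Pro-X carboxypeptidase-like). LOC109833245 averaged 66.4 ± 22.9 FPKM at H-60, against 21.2 ± 12.3 FPKM at H-25.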

How the data were processed

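RNA-seq libraries of asparagus stem segments (4 stages, 3 libraries each) were used. The authors deposited FPKM values per gene and library. HISAT2, StringTie, featureCounts and DESeq2 are listed by the submitters' notes on processing, while their options and the genome build are not given in the sources used here. Libraries were strand-specific, and the strand setting of the counting is not known. The 4 columns of the authors' group means were not used. All 32237 RefSeq genes have in the table the start and end of Aspof.V1, whose coordinates are printed.

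Multiplied by gene length, the values of a library came out as whole multiples of the smallest step (tolerance 0.01), which gave its fragments. Genes reaching 1 FPKM in 3 or more libraries entered the test. The log2(FPKM + 1) values of all 12 libraries went into limma 3.58.1 (R 4.3.3) with a mean for each stage and eBayes with a trend. Fold changes on this scale, later minus earlier stage, understate those of low genes. P-values were adjusted by Benjamini-Hochberg over all tested genes of a comparison. The files were handled with numpy 2.4.6 and pandas 2.3.3. The fit was also run on simulated counts with the same dispersion for all genes and no outlying library. That run does not check the fit for a stage with a spread like that of H-25. Alternatives were other pseudocounts, filters and scalings (TPM, median of ratios, quantile), limma voom on fragments, a model of only the 2 stages compared, no trend, unadjusted p, no fold criterion, a replicate block and leaving out each library.

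Members were named by their description, partner genes as the most abundant tested gene of each list, and similar genes as the 5 of highest r. The members and lists were chosen with earlier results of these data known. Promoter and protein sequences were not used here.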

Additional observations from a re-analysis of the deposited data

How the results depend on the processing

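Of the 4 counts of called members above 0, that of members lower at H-25, against H-10, changed by more than 1.5 times. This count was 2 in the full model and 0 with only the 2 stages compared, and it ran from 1 to 4 when single libraries were left out (4 without H-25 replicate 2, and 1 without either of H-10 replicates 1 and 2 or H-25 replicates 1 and 3). Over all tested genes, the lower calls of this comparison also moved. They were 592 in the full model, 124 with only the 2 stages compared, and 228 to 1158 when single libraries were left out. With only the 2 stages compared, LOC109833647 and LOC109840157 had the same changes at adjusted p of 0.0605 and 0.112, and LOC109819760 at H-40, against H-25, at 0.0597, so that 5 members in place of 6 were called higher there. The fold changes that turned their sign were uncalled before and after. Quantile normalization gave -0.10 for LOC109845351 at H-60, against H-40, and -0.26 for LOC109820065 at H-25, against H-10, and TPM gave -0.094 for LOC109849688 at H-25, against H-10. Leaving out single libraries gave -0.21 to 0.21, -0.29 to 0.61 and -0.33 to 0.43 for these 3 changes. For LOC109849404 it gave -0.078 to 0.82 at H-25, against H-10, -0.54 to 0.36 at H-40, against H-25, and -0.80 to 0.10 at H-60, against H-25. The cause was not tested. TPM also called LOC109820065 (1.32) higher at H-40, against H-25, and LOC109847517 lower at H-25, against H-10 (-1.27). Of the shares of the family sum, 6 moved beyond 1 SD, all with quantile normalization, to 62.7% for LOC109845351 and 30.2% for LOC109820065 at H-40. Replicate numbers are shared between stages, and the full model has no term for them. Of 18 same-numbered pairs, 10 deviated together (r over 0.1, range -0.09 to 0.33), and 10 of 12 libraries correlated best with their own number. With the replicate block, 2 members were lower at H-25, against H-10, and 6 higher at H-40, against H-25, and no member's call changed. Depth limits LOC109847517, with 1 to 11 fragments at H-25, and LOC109820666.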

Other observations

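Outside the rule, 3 further loci had a sucrose synthase as their closest protein in the table's annotation without being described as one. LOC109820667, a long non-coding RNA on chromosome 8 (126406900 to 126409072), starts 263 bases after the end of LOC109820666. It had 11.4, 5.94 and 7.16 FPKM at H-10, 14.4, 2.41 and 13.0 FPKM at H-25, 7.82, 2.28 and 3.00 FPKM at H-40, and 5.69, 3.43 and 5.52 FPKM at H-60, while LOC109820666 itself stayed at or below 1.15 FPKM. Over the 12 libraries its r with LOC109849404, the 3-like member on chromosome 7, was 0.753, which was not tested. Both were far lower in H-25 replicate 2 than in the other H-25 libraries.

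LOC109849917, annotated as a pseudogene on chromosome 7 (145688470 to 145699911), had 0.207, 2.86 and 10.7 FPKM in H-10 replicates 1, 2 and 3, on 11, 132 and 453 fragments. At the other stages it stayed at 0 to 0.606 FPKM, so that its H-10 libraries differed from each other more than the later stages did. LOC109847597, another pseudogene, had no fragment in any library.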
